A study of Mus musculus with 10 samples.

Results

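Men1 encodes menin, and the 10 genes described here are Men1, the MLL-family histone methyltransferase genes Kmt2a, Kmt2b, Kmt2c and Kmt2d, the shared core subunit genes Wdr5, Rbbp5, Ash2l and Dpy30, and Psip1. They were taken by gene symbol from the annotation of the array, which gave 21 probe sets of 45037, and 17 of these, at least 1 per gene, exceeded 4 (log2) on no fewer than 5 arrays, the level called above background here. All 10 genes are thus among the 10538 genes measured above that level, with 18567 probe sets in all. RNA was measured in pancreatic islets of 5 wildtype mice and of 5 littermates heterozygous for Men1, all female, aged 5 weeks and of a strain labelled C57 on a 129 background. Both groups carry at least 1 intact copy of Men1, the labels do not describe the mutant allele, and no Cre or other transgene is named. About 100 islets were pooled from each mouse, and 100 ng of RNA was amplified over 2 cycles and run on 1 short-oligonucleotide array per mouse. The replicates are therefore separate mice, and p-values for genotype weigh a difference against the spread between them. With 1 array per mouse, that spread also holds variation from islet pooling and amplification.

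Menin is a tumour suppressor whose loss in people and mice leads to tumours of endocrine tissues, the pancreatic islet among them. It has no known enzymatic activity and acts largely as an adaptor, joining the amino-terminal end of KMT2A or KMT2B to chromatin together with LEDGF, the product of Psip1. The methyltransferase itself works in a COMPASS-type complex, in which WDR5, RBBP5, ASH2L and DPY30 form a core that raises the activity of the catalytic subunit on lysine 4 of histone H3, and in islets menin is known for keeping cell cycle inhibitor genes expressed through this mark.

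Upstream sequence is shown for Men1, Kmt2a and Rbbp5. Kmt2a and Rbbp5 had the member probe sets whose levels ran most strongly against Men1 over the 10 mice, as described further on. For Kmt2a this held for probe set 1452377_at alone, since its other probe set, 1427283_at, gave r = 0.18. The letters are those of the RefSeq promoter table for GRCm38.p6, which matched 7 of the 10 genes, cut so that no base lies inside the gene model, and they run 5′ to 3′ on the strand of the gene. Capitals mark GGGCGG, the letters of a GC box, CCGGAA, the core bound by ETS factors, and CCAAT, each read on both strands. The Men1 stretch is chr19:6334729-6334978 on the plus strand, that of Kmt2a is chr9:44881353-44881539 on the minus strand, and that of Rbbp5 is chr1:132477117-132477347 on the plus strand.
Men1: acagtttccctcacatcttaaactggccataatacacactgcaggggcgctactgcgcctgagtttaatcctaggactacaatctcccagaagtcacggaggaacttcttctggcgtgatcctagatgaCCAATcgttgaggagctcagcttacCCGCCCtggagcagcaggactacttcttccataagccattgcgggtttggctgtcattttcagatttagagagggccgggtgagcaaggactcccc
Kmt2a: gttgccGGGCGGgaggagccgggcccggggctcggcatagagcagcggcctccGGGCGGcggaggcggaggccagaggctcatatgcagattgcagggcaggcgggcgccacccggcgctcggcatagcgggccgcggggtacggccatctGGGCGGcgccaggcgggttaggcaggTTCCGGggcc
Rbbp5: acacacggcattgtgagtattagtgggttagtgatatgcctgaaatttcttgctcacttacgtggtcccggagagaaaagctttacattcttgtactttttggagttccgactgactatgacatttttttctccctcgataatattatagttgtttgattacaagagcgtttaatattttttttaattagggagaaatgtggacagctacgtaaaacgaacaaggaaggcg

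Over the full 250 bases before the start that the promoter table uses, GGGCGG stood in 5 of the 7 genes, namely Men1, Kmt2a, Kmt2c, Kmt2d and Wdr5, against 33.0% of 27025 promoters of that length. All 250 of these bases of Kmt2d, 72 of Kmt2c, 63 of Kmt2a and 19 of Rbbp5 lie inside the gene model, and outside it GGGCGG stood in Men1, Kmt2a, Kmt2c and Wdr5. CCAAT stood in Men1 and Dpy30, against 34.5% of all promoters. CCGGAA stood in Kmt2a alone among the 7, against 12.25% of all, and TGACGTCA, the letters of a cyclic AMP response element, in none of the 7 and 1.6% of all. The motifs can share end letters, but no match overlapped another in the stretches printed, and a match describes the letters alone. Kmt2a held 29 CpG dinucleotides in its 250 bases, Rbbp5 10 and Men1 8, where the median of all promoters was 6. No motif was shared by the 3 stretches printed above, since Rbbp5 held none of the 4.

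Men1 lay lower on average in the heterozygous islets, but the values of the groups overlapped. Probe set 1416347_at, the only 1 of the 3 Men1 probe sets above background, read 7.21, 7.18, 6.83, 6.96 and 6.25 on the log2 scale in wildtype replicates 1 to 5. In heterozygous replicates 1 to 5 it read 6.82, 6.09, 6.56, 6.44 and 6.17. All 5 heterozygous values lay under the wildtype mean, 2 of them lay under every wildtype value, and wildtype replicate 5 sat within the heterozygous range. The difference was -0.47 ± 0.20 (log2, SE, n = 5 and 5; 95% interval -0.91 to -0.03), a level of 72.3% of wildtype with an interval of 53.2% to 98.2%. Its unadjusted p was 0.0396 in limma and 0.0635 in an exact two-sided permutation test over 252 assignments, which can give no p below 0.00794. The limma p adjusted over all 18567 probe sets was 0.9999, so the difference did not pass, and this held for each of the 17 member probe sets, which all had that adjusted p. Without heterozygous replicates 2 and 5 the difference was -0.28, and without these and wildtype replicate 5 it was -0.43.

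The remaining Men1 probe sets were dim and add no reading of the gene. 1416348_at stayed between 3.06 and 3.34 and 1443826_x_at between 2.46 and 3.29, below the level of 4 on all 10 arrays. Where the probes lie in relation to the mutant allele was not analysed here, so the Men1 values are not a check of the genotype labels. The remaining dim members were Kmt2d 1427555_at, between 2.32 and 2.42, and Wdr5 1448389_at, between 2.69 and 2.74.

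**Figure D1:**
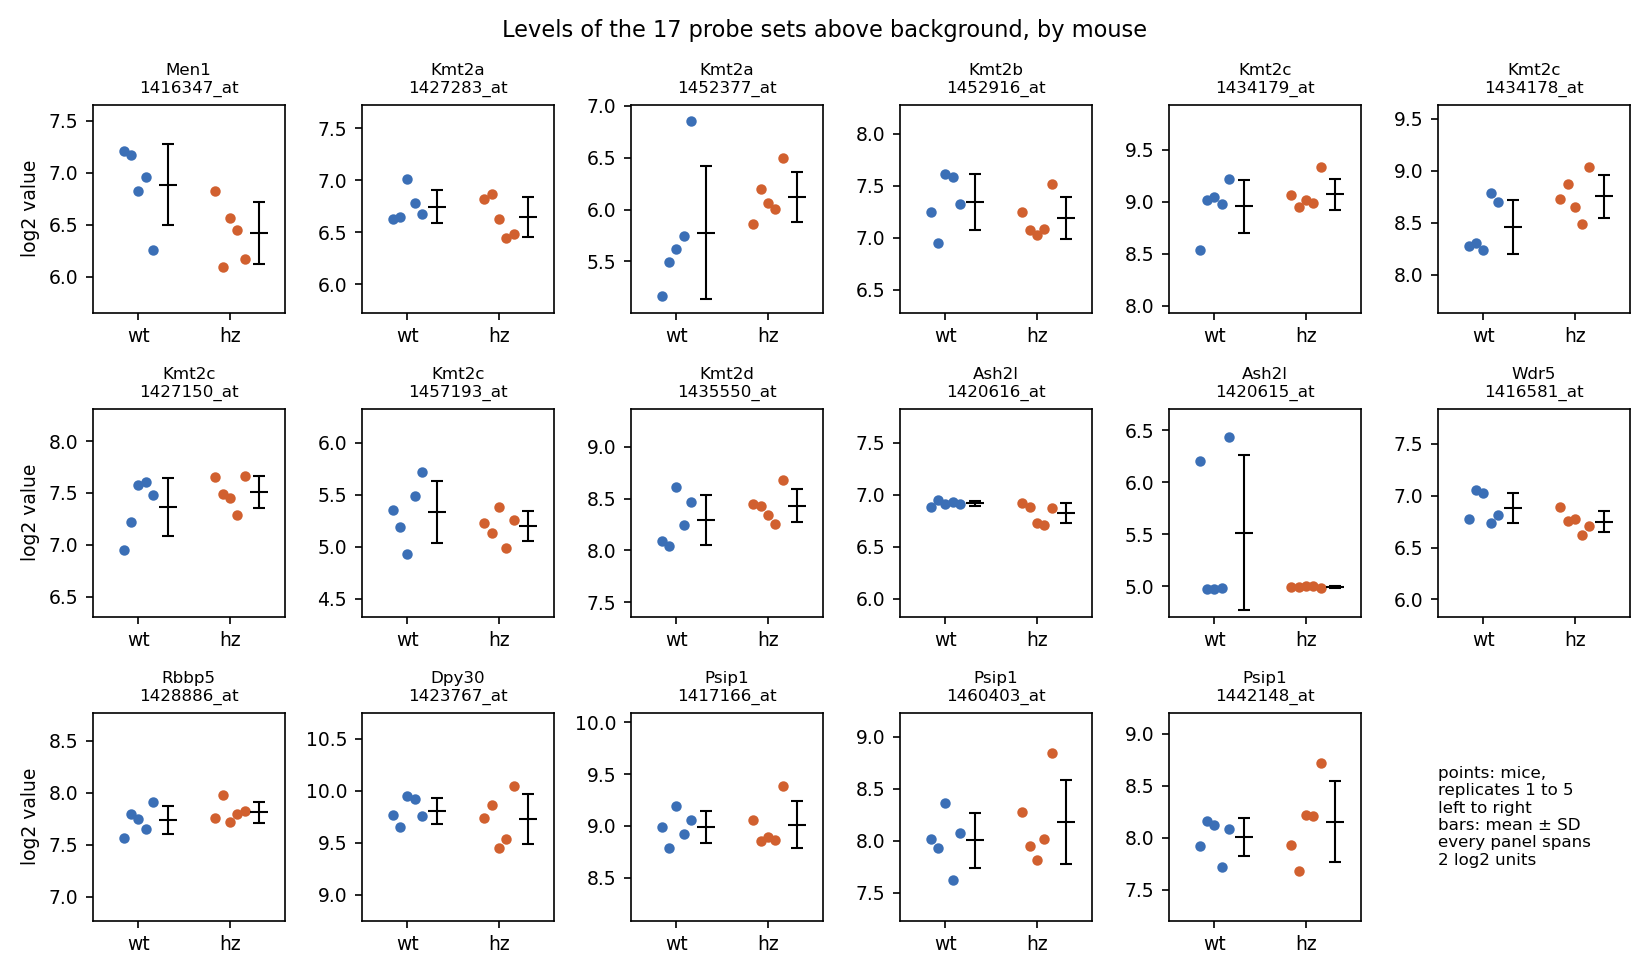
Log2 values of the 17 member probe sets above background in each mouse, wildtype (wt, blue) and heterozygous (hz, orange), replicates 1 to 5 from left to right, with mean ± SD bars; every panel spans 2 log2 units. The groups overlap in all 17 panels, the Men1 points of heterozygous replicates 2 and 5 and wildtype replicate 5 are the 3 lowest of 10, and Ash2l 1420615_at is at about 5 in all but 2 mice.

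KMT2A and KMT2B are the catalytic subunits that menin binds, and no level of either gene differed by genotype past the threshold. Kmt2a was read by a pair of probe sets for which the annotation lists the same representative sequence, and they went different ways. 1427283_at read 6.63, 6.65, 7.01, 6.79 and 6.67 in wildtype and 6.82, 6.87, 6.63, 6.45 and 6.48 in heterozygous replicates 1 to 5. The difference was -0.10 ± 0.12 (SE, 95% interval -0.36 to 0.16), within the spread of the mice. 1452377_at read 5.16, 5.50, 5.62, 5.74 and 6.85 in wildtype and 5.86, 6.19, 6.06, 6.0 and 6.49 in heterozygous replicates 1 to 5. Here wildtype replicate 5 was the highest of all 10 mice and the 4 other wildtype mice were the lowest 4, while all 5 heterozygous values lay above the wildtype mean. The difference was 0.35 ± 0.27 (SE, 95% interval -0.25 to 0.95). It was 0.62 without wildtype replicate 5 but 0.19 without wildtype replicate 1, 0.20 without heterozygous replicates 2 and 5 and 0.18 with the mean of lymphocyte markers as a covariate, without a call in any of these.

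The Kmt2a probe sets did not follow each other. They correlated at r = -0.22 over the 10 mice, the only negative value among the 11 member pairs of probe sets that both lay above background, whose median was 0.57. With genotype means removed it was -0.13, and the pair of Ash2l was then at -0.18. Over 9286 such pairs of all genes the median was 0.43 and 19.05% were below 0, so a negative pair is not rare on this array. Which of them follows the Kmt2a transcript cannot be told from these values, and results that rest on 1452377_at are read as those of a probe set.

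Kmt2b was read by 1 probe set, at 7.25, 6.95, 7.61, 7.58 and 7.32 in wildtype and 7.25, 7.07, 7.03, 7.09 and 7.51 in heterozygous replicates 1 to 5. Of the heterozygous values, 4 of 5 lay under the wildtype mean, and the lowest value of all was wildtype replicate 2. The difference was -0.15 ± 0.15 (SE, 95% interval -0.47 to 0.17).

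KMT2C and KMT2D are the catalytic subunits of the COMPASS-type complexes that mark enhancers, and they do not bind menin. Kmt2c had 4 probe sets above background, of which 3 read higher and 1 lower in heterozygous islets on average, none past the threshold. The largest of these differences was that of 1434178_at, which read 8.28, 8.30, 8.23, 8.78 and 8.70 in wildtype and 8.73, 8.87, 8.65, 8.49 and 9.04 in heterozygous replicates 1 to 5. All 5 heterozygous values lay above the wildtype mean, 0.30 ± 0.15 higher on average (SE, 95% interval -0.03 to 0.62; limma unadjusted p = 0.0677), while wildtype replicates 4 and 5 lay within the heterozygous range. Without heterozygous replicates 2 and 5 the difference of Kmt2c 1434178_at was 0.16. 1434179_at, the brightest, differed by 0.11 ± 0.13 and 1427150_at by 0.14 ± 0.14. Without wildtype replicate 1 these Kmt2c differences were 0.0071 and 0.041. The fourth, 1457193_at, differed by -0.14 ± 0.14. Its r with the others was 0.03 to 0.34, against 0.57 to 0.77 among the first 3. With genotype means removed it was 0.67 with 1434178_at and 0.15 and 0.21 with the other two, against 0.51 to 0.75 among the first 3.

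Kmt2d read 8.09, 8.04, 8.61, 8.25 and 8.47 in wildtype and 8.45, 8.43, 8.35, 8.25 and 8.68 in heterozygous replicates 1 to 5. The difference was 0.14 ± 0.13 (SE, 95% interval -0.15 to 0.43), with 4 of 5 heterozygous values above the wildtype mean. Wildtype replicates 1 and 2 were the lowest of the 10 mice and heterozygous replicate 5 the highest.

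By their brightest probe sets, the 4 core subunits differed between the genotypes by no more than 0.13 on average. WDR5 is the propeller protein that binds the catalytic subunit, and Wdr5 read 6.78, 7.05, 7.03, 6.73 and 6.82 in wildtype and 6.89, 6.75, 6.78, 6.62 and 6.70 in heterozygous replicates 1 to 5. Of the heterozygous values 4 of 5 lay under the wildtype mean, by -0.13 ± 0.10 on average (SE, 95% interval -0.35 to 0.08). RBBP5, which bridges the catalytic subunit and ASH2L, had a gene level of 7.56, 7.79, 7.75, 7.66 and 7.91 in wildtype and 7.76, 7.98, 7.72, 7.79 and 7.83 in heterozygous replicates 1 to 5. The Rbbp5 difference was 0.08 ± 0.09 (SE, 95% interval -0.13 to 0.29), so that a change of more than 1.22-fold upwards lies outside the interval. The residual SD of Rbbp5 was 0.12, lower than that of all but 8.80% of the probe sets tested.

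ASH2L joins RBBP5 and DPY30 in the core, and the pair of Ash2l probe sets had very unlike spreads. 1420616_at read 6.88, 6.95, 6.91, 6.93 and 6.91 in wildtype and 6.92, 6.88, 6.73, 6.71 and 6.88 in heterozygous replicates 1 to 5. Its whole range was 0.24, and heterozygous replicates 3 and 4 stood below the others, which made the difference of -0.09 ± 0.08 (SE, 95% interval -0.27 to 0.08). 1420615_at lay between 4.97 and 5.00 in 8 mice and read 6.21 in wildtype replicate 1 and 6.44 in wildtype replicate 5. With 8 values alike at a low reading, its difference of -0.52 ± 0.29 rests on those 2 wildtype mice, and the correlation of the Ash2l probe sets was r = 0.16.

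DPY30 is the small subunit that docks on ASH2L, and Dpy30 read 9.76, 9.65, 9.95, 9.92 and 9.76 in wildtype and 9.74, 9.86, 9.45, 9.54 and 10.05 in heterozygous replicates 1 to 5. Heterozygous mice were both the highest and the 2 lowest of the 10, and the difference was -0.08 ± 0.13 (SE, 95% interval -0.36 to 0.20).

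Psip1 encodes LEDGF, the chromatin reader that tethers menin and KMT2A, and its 3 probe sets kept together. The brightest, 1417166_at, read 8.99, 8.79, 9.20, 8.92 and 9.06 in wildtype and 9.06, 8.85, 8.89, 8.86 and 9.38 in heterozygous replicates 1 to 5. Heterozygous replicate 5 was the highest mouse on all 3 probe sets, at 8.84 on 1460403_at and 8.72 on 1442148_at. The pairs of Psip1 probe sets correlated at r = 0.88, 0.58 and 0.71. The genotype differences were 0.02 ± 0.13, 0.18 ± 0.20 and 0.15 ± 0.18 (SE), each smaller than its error, and without heterozygous replicate 5 that of 1417166_at was -0.07.

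**Figure D2:**
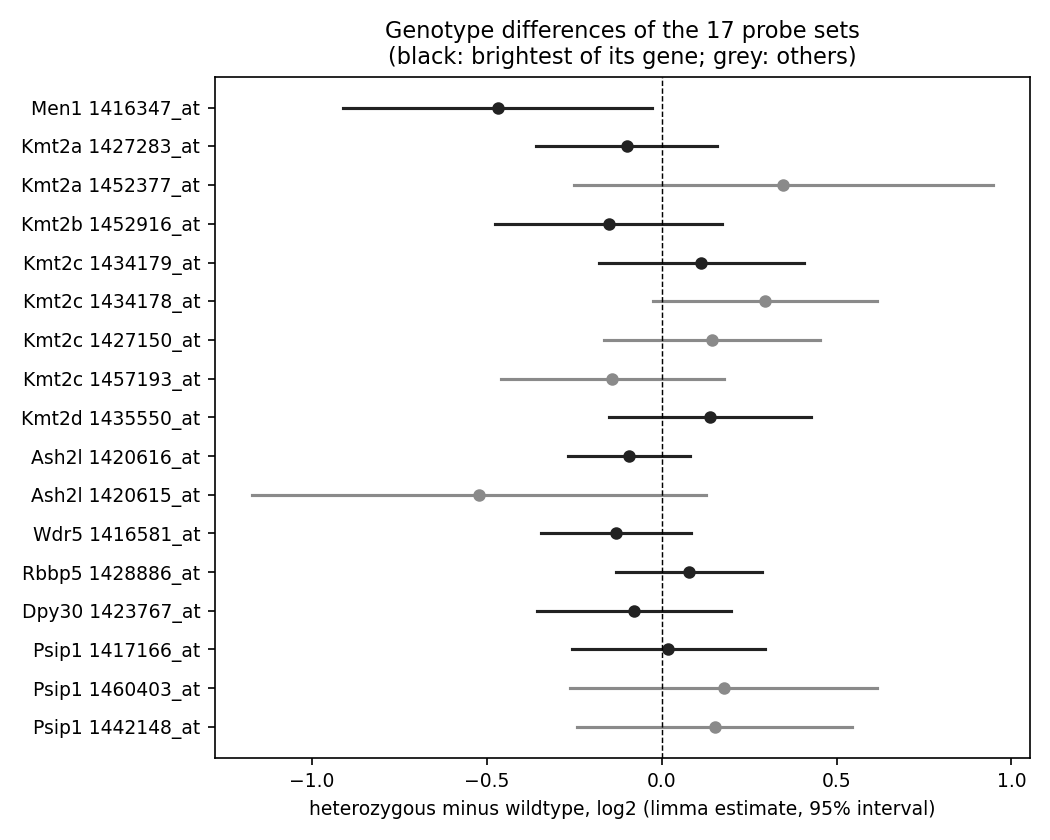
Difference of the heterozygous from the wildtype mean (log2) with its 95% interval from limma for the 17 member probe sets, black for the brightest probe set of a gene and grey for the others. The interval of Men1, from -0.91 to -0.03, is the only one that does not reach 0, and none passed after adjustment over all probe sets.

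Read as a group, the members did not stand apart from the array. Of the 17 probe sets 8 were lower and 9 higher in heterozygous islets, with a median difference of 0.020, where 43.6% of all 18567 were lower and their median was 0.022. None of the 17 passed an adjusted p of 0.05 in limma, and 0% of all probe sets did, whose lowest adjusted p was 0.72. An unadjusted p under 0.05 was reached by 1 of the 17, Men1, against 4.09% of all. In no member did the genotypes separate without overlap, against 0.700% of all. Taking the brightest probe set per gene, 6 genes were lower and 4 higher. The residual SD of the members had a median of 0.22, and that of all probe sets 0.25.

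The levels of Men1 were then set against those of each member over the 10 mice, as a description of how they varied together. Kmt2a 1452377_at ran most strongly against Men1, with Pearson r = -0.89 and Spearman rho = -0.93 (permutation p = 0.00046 and 0.00039, n = 10). Among 18566 probe sets it had the 10th lowest r. Adjusted over all of them its p was 0.543, so that it did not pass. With the genotype means removed r was -0.89, and without heterozygous replicates 2 and 5, the farthest from the median of Men1, it was -0.92. The Kmt2a reading from 1427283_at gave r = 0.18 and rho = 0.02 with Men1, so the inverse relation belonged to 1 of the 2 Kmt2a probe sets.

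Rbbp5 came next, with r = -0.79 and rho = -0.77 (permutation p = 0.00552 and 0.0131, n = 10; adjusted p = 0.692). It was the 113th lowest r, and it was -0.77 with genotype means removed and -0.70 without the 2 mice farthest from the Men1 median. Kmt2c 1434178_at followed at r = -0.71 (rho = -0.66), Kmt2d at -0.66 (rho = -0.65) and Kmt2c 1434179_at at -0.61 (rho = -0.33). Wdr5 had the highest positive value, r = 0.51 (rho = 0.43; permutation p = 0.135 and 0.22), or 0.30 with genotype means removed. Kmt2b, which menin also binds, had the value nearest 0 (r = -0.0022, rho = 0.05). The 3 Psip1 probe sets lay between -0.34 and -0.28, Dpy30 was at -0.15, and Ash2l at 0.34 and 0.05.

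In all, 12 of the 16 member probe sets had a negative r with Men1, with a median of -0.28, where 57.3% of all probe sets were negative and their median was -0.08. None passed after adjustment, and 0% of all probe sets did, while 5 of 16 had an unadjusted p under 0.05, against 6.59% of all. With genotype means removed 2 of 16, Kmt2a 1452377_at and Rbbp5, stayed under 0.05, against 5.88% of all. The 4 Kmt2c probe sets share transcripts and are not separate counts, and the 5 come from 4 genes.

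**Figure D3:**
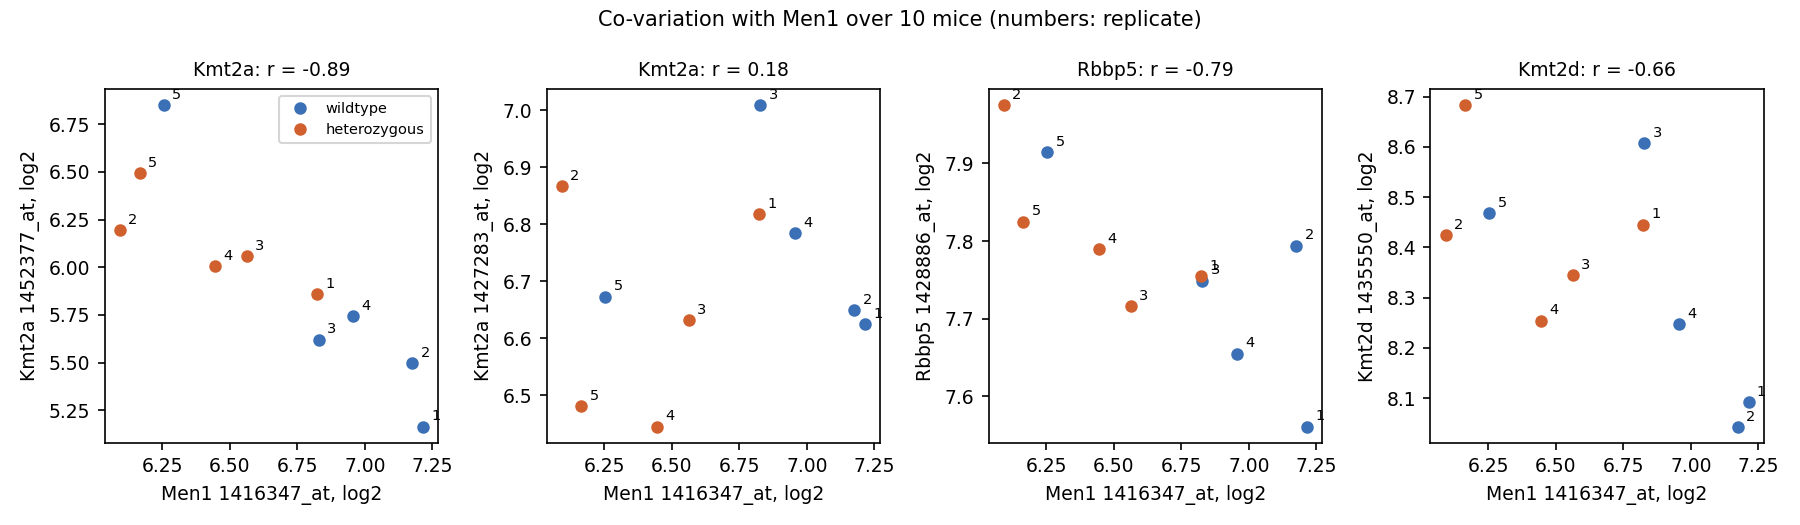
Log2 values of Kmt2a (1452377_at and 1427283_at), Rbbp5 and Kmt2d against Men1 1416347_at, 1 point per mouse, numbered by replicate and coloured by genotype. Kmt2a 1452377_at falls as Men1 rises in both genotypes (r = -0.89), whereas the second Kmt2a probe set does not (r = 0.18).

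**Figure D4:**
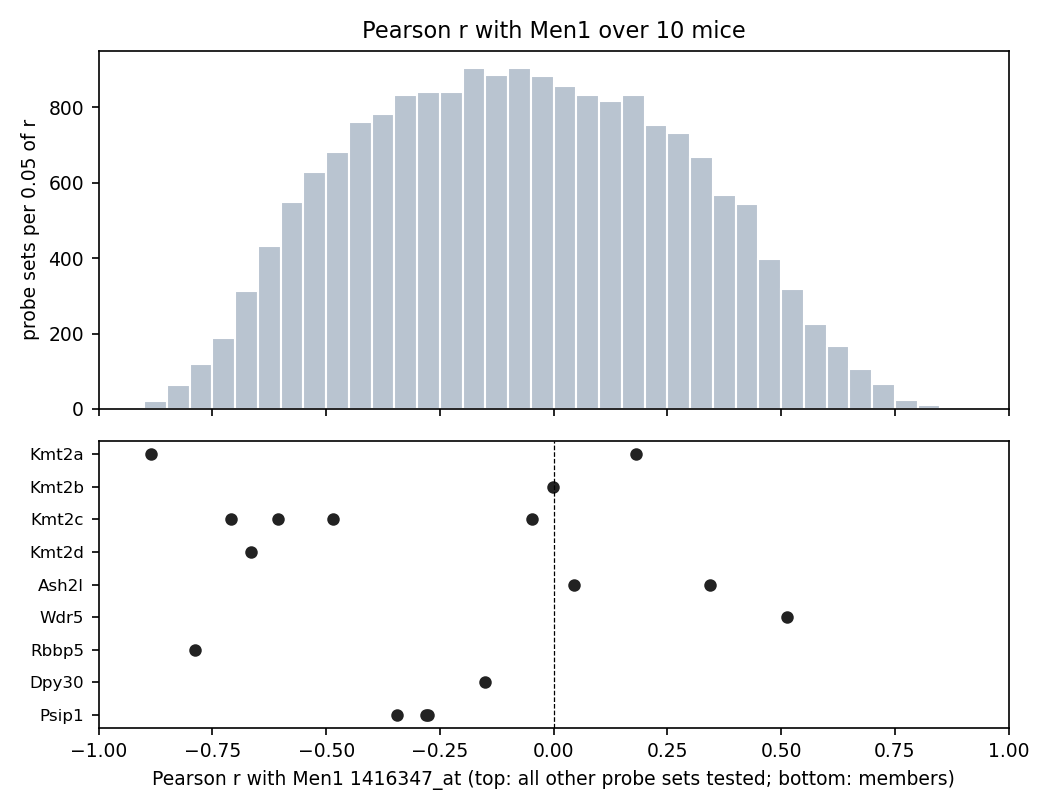
Top, the number of probe sets in each step of 0.05 of Pearson r with Men1 over 10 mice, for all 18566 others; bottom, the r of the 16 member probe sets by gene. Members spread from -0.89 to 0.51 inside a broad distribution centred near -0.08.

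The same 3 mice lay at the ends of these relations. Heterozygous replicates 2 and 5 and wildtype replicate 5 had the 3 lowest Men1 values, 6.09, 6.17 and 6.25. They also had the 3 highest values of Kmt2a 1452377_at, 6.19, 6.49 and 6.85, and the 3 highest of Rbbp5, 7.98, 7.83 and 7.91. B lymphocyte genes were high on the arrays of heterozygous replicates 2 and 5, which had the 2 highest values of 6 of the 7 lymphocyte markers above background, and some of them were high in wildtype replicate 5. The mean of the 7 lymphocyte markers above background, of 18 listed, was 7.16, 6.60 and 5.57 in heterozygous replicates 2 and 5 and wildtype replicate 5 and 4.96 to 5.12 in the other 7. Ighm, the heavy chain of IgM, read 8.21, 7.36 and 6.02 there and 3.86 to 4.50 elsewhere. In wildtype replicate 5 Ms4a1 and Coro1a were also higher than in the other 7, but Cd74 was at 7.89, the lowest of all 10 mice, and Cd22 and Cd79a, at 5.03 and 4.01, lay within the range of the other 7. The T cell genes Cd3e, Cd3g, Cd3d and Cd2 stayed at background in all 10 mice, at 2.22 to 2.96.

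Men1 correlated with the lymphocyte mean at r = -0.73 (rho = -0.43; permutation p = 0.00901 and 0.217; adjusted p = 0.999 over all probe sets, n = 10), and at -0.47 without heterozygous replicates 2 and 5. With the lymphocyte mean as a covariate the Men1 difference was -0.29. Without all 3 mice, over the 7 left, Men1 and Kmt2a 1452377_at still ran against each other at r = -0.90, while Men1 and Rbbp5 gave r = -0.48. Rbbp5 correlated with the lymphocyte mean at r = 0.68 (rho = 0.56; permutation p = 0.0364 and 0.096; adjusted p = 0.999, n = 10), and at 0.63 with genotype means removed. With that mean as a covariate the genotype difference of Rbbp5 was 0.018 instead of 0.08. Kmt2c 1434178_at had r = 0.66 with the lymphocyte mean (rho = 0.33; permutation p = 0.032 and 0.347; adjusted p = 0.999, n = 10). Its r was 0.24 without heterozygous replicates 2 and 5. With the covariate its genotype difference was 0.19 instead of 0.30. Men1, Rbbp5 and Kmt2c 1434178_at are 3 of 17 member probe sets with an unadjusted p under 0.05 for Pearson r, against 3.63% of all. In these bulk samples fewer cells of a type and less RNA per cell cannot be told apart.

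By the same measure, the probe sets most like Men1 over the 10 mice were those of genes outside the complex. The 5 highest were Capn5, a calpain protease (r = 0.93), Plekha3, a phosphoinositide-binding Golgi protein (0.92, with readings of only 3.79 to 4.86), Rapgef1, an exchange factor for Rap1 (0.88), Ccnd3, cyclin D3 (0.87), and Git1, a GTPase-activating protein for ARF (0.87). The 3 lowest were Thoc2, a subunit of the mRNA export complex THO (r = -0.94), Fundc2 (-0.94) and Sfxn2, a mitochondrial carrier (-0.92). None passed after adjustment over all probe sets, where the lowest adjusted p of these 8 was 0.371. Capn5 was lower in heterozygous islets by -0.46 ± 0.18 (SE; limma adjusted p = 0.9999), a size like that of Men1. Since Capn5 was picked for its r with Men1 on the same arrays, this is not a separate likeness.

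The members were next compared with one another, with the brightest probe set of each gene. Over the 45 pairs the median r was 0.24, or 0.30 with genotype means removed. Over all pairs of the 18567 probe sets, not cut to 1 per gene, the median r was 0.04. Of the 13 pairs above 0.5, 6 were the pairs that Kmt2b, Kmt2d, Dpy30 and Psip1 form among themselves. Kmt2d and Psip1 gave r = 0.80 (rho = 0.76), Kmt2b and Dpy30 0.79 (rho = 0.78), Kmt2b and Psip1 0.74 (rho = 0.78), and Dpy30 and Psip1 0.68 (rho = 0.59). Men1 had 1 pair above 0.5, with Wdr5, and its r was 0.30 with genotype means removed. These pairs share 10 arrays and are given without a test, and the share of all pairs above 0.5 was not worked out.

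The same 4 genes had the highest r among the members with the mean of islet endocrine genes, and 1 of their probe sets, Psip1 1417166_at, passed adjustment for that measure. The 16 islet endocrine genes above background, of 21 listed, include the hormone genes Ins2, Gcg, Sst, Ppy and Iapp. Ins2, Gcg and Iapp stayed within 16.14 to 16.50 in all mice, near the array maximum of 17.58. G6pc2 ran from 13.04 to 14.44 and Slc30a8 from 11.09 to 12.45, so such genes moved the mean more. The mean of the 16 genes per mouse ran from 12.59 in wildtype replicate 2 to 13.31 in wildtype replicate 3. It did not separate the genotypes, at 12.95 ± 0.26 in wildtype and 12.92 ± 0.25 in heterozygous mice (SD, n = 5 each). Psip1 1417166_at gave r = 0.91 and rho = 0.94 with it (permutation p = 8e-05 and 0.00022, n = 10), and r = 0.92 with genotype means removed. Without wildtype replicates 2 and 3, the farthest from the median of the endocrine mean, r was 0.90. Its permutation p adjusted over all probe sets was 0.0392, and 0.0696 when adjusted also over the 6 sample measures given a test. Means of other lists, duct and myeloid among them, were correlated with the members without a test and are outside that adjustment. The lists were chosen with earlier results of these data known. Adjustment for the islet endocrine mean alone called 1.52% of all probe sets. The call was lost with genotype means removed (adjusted p = 0.0508). It was also lost on leaving out any of 8 of the 10 mice, with r from 0.90 to 0.95.

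None of the others passed. Kmt2b gave r = 0.83 (rho = 0.83, permutation p = 0.00459, adjusted p = 0.0876), Kmt2d 0.71 (rho = 0.67, permutation p = 0.023, adjusted p = 0.167) and Dpy30 0.70 (rho = 0.67, permutation p = 0.0265, adjusted p = 0.177). Without wildtype replicates 2 and 3 the r of Kmt2b was 0.68, that of Kmt2d 0.48 and that of Dpy30 0.66. Psip1 1460403_at gave r = 0.75 (rho = 0.81, permutation p = 0.00787, adjusted p = 0.109), but the third Psip1 probe set, 1442148_at, gave r = 0.29 (rho = 0.01). These make 5 of 17 member probe sets with an unadjusted p under 0.05, where 21.4% of all probe sets had one, so the share of members is near that of the array. Men1 itself gave r = -0.08 (rho = -0.01). In the mean of 12 acinar genes Ctrc varied most, from 11.34 to 15.52. The other acinar genes averaged 16.10 to 17.06, near the array maximum of 17.58. Psip1 1460403_at ran against this mean, at r = -0.74 (rho = -0.61, permutation p = 0.0186, adjusted p = 0.312). Psip1 1442148_at did so at r = -0.65 (rho = -0.54, permutation p = 0.0454, adjusted p = 0.356). They are 2 of 17 member probe sets with an unadjusted p under 0.05, against 13.7% of all. With the mean of 7 duct genes, Psip1 1417166_at, 1460403_at and 1442148_at had r = -0.78, -0.81 and -0.69. Kmt2d had -0.67 with the duct mean, Kmt2b -0.25 and Dpy30 -0.26. These duct values are given without a test, and the share of all probe sets was not worked out. Whether the share of endocrine, acinar or duct cells sets these values was not tested.

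With a measure of transcript ends, the brightest probe sets of Ash2l and Dpy30 had the lowest r among the members, and neither passed. The difference between the 3′ and 5′ control probe sets of Actb and Gapdh, which grows as amplified RNA gets shorter, was 3.56 and 3.59 in heterozygous replicates 3 and 4 and 3.21 to 3.37 in the other 8 mice. Ash2l 1420616_at had its 2 lowest values in those mice and r = -0.94 with this difference (rho = -0.68; permutation p = 0.0035 and 0.0343, adjusted p = 0.537, n = 10). Dpy30 also had its 2 lowest values there, with r = -0.77 (rho = -0.62; permutation p = 0.00907 and 0.0619, adjusted p = 0.653). Without those 2 mice r was -0.34 for Ash2l and -0.22 for Dpy30, so both relations rest on them. They are 2 of 17 member probe sets with an unadjusted p under 0.05, against 6.08% of all, and the second Ash2l probe set, 1420615_at, gave r = -0.017. With the 3′ minus 5′ difference as a covariate the genotype difference of Dpy30 was 0.049 instead of -0.08, that of Ash2l 1420616_at -0.035 instead of -0.09, that of Kmt2b -0.060 instead of -0.15 and that of Kmt2a 1427283_at -0.035 instead of -0.10. For Kmt2c 1427150_at it was 0.23 instead of 0.14, and for Psip1 1460403_at 0.30 instead of 0.18. For Kmt2c 1434178_at it was 0.39 instead of 0.30, for Kmt2d 0.20 instead of 0.14, and for Ash2l 1420615_at -0.64 instead of -0.52. Men1 gave r = -0.35 with the 3′ minus 5′ difference (permutation p = 0.335, adjusted p = 0.956), and -0.52 without heterozygous replicates 3 and 4.

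**Figure D5:**
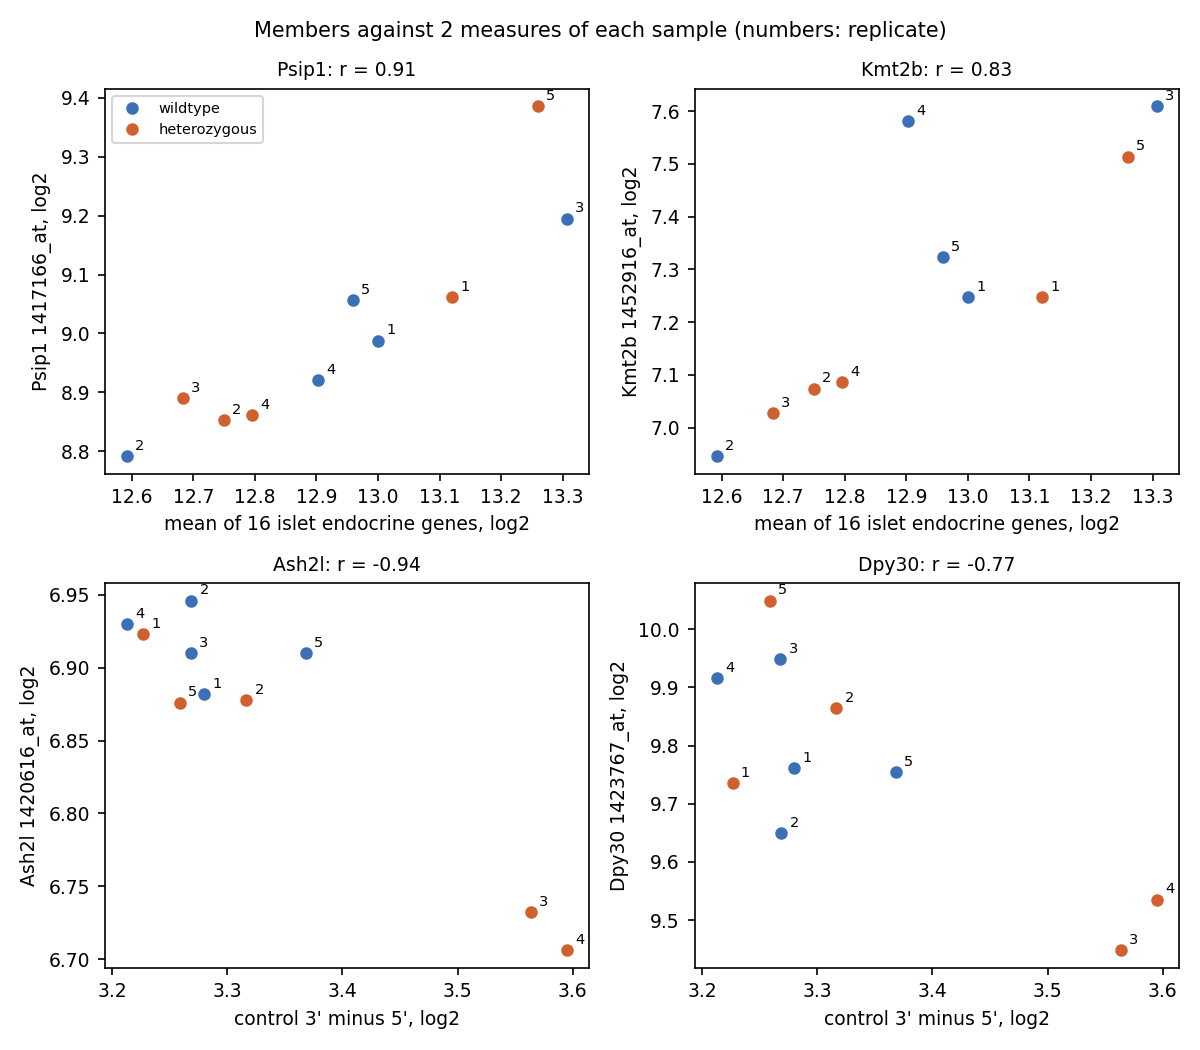
Psip1 1417166_at and Kmt2b against the mean log2 value of 16 islet endocrine genes (top), and Ash2l 1420616_at and Dpy30 against the excess of 3′ over 5′ signal of the Actb and Gapdh controls (bottom), 1 point per mouse, numbered by replicate and coloured by genotype. Psip1 and Kmt2b rise along the axis in both genotypes, while in the bottom panels heterozygous replicates 3 and 4 stand alone at 3.56 and 3.59.

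The rest of the pathway was read from lists of its other genes. All 12 further subunits of COMPASS-type complexes were above background, 8 higher and 4 lower in heterozygous islets by the brightest probe set, with a median of 0.05 and none past the adjusted threshold. The 3 with the smallest p were Ncoa6, a coactivator subunit of the KMT2C and KMT2D complexes, Kdm6a, a histone H3 demethylase in the same complexes, and Wdr82, a subunit of the SETD1 complexes. Ncoa6 differed by 0.29 ± 0.12 (SE; limma unadjusted p = 0.0355), Kdm6a by 0.20 ± 0.10 and Wdr82 by 0.09 ± 0.11, and the groups overlapped for each of the 3. Of 20 partners of menin or MLL, 17 were measured, 12 higher and 5 lower, with a median of 0.09 and none past the threshold. The smallest p-values were those of Myc, the transcription factor (0.44 ± 0.30, or 0.26 without heterozygous replicate 3), Hdgfl2, a relative of LEDGF (0.13 ± 0.10), and Nfya, a subunit of the factor that binds CCAAT (-0.21 ± 0.16).

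Of 17 genes known as targets of menin in islets or other tissues, 11 were measured, 5 higher and 6 lower, with a median of -0.02 and none past the adjusted threshold. Cdkn2b, the cell cycle inhibitor p15, read 7.77, 7.17, 7.65, 7.03 and 7.21 in wildtype and 7.69, 7.87, 7.73, 8.03 and 8.0 in heterozygous replicates 1 to 5. All 5 heterozygous values lay above the wildtype mean, 0.50 ± 0.15 higher (SE; limma unadjusted p = 0.00802, adjusted p = 0.9999), with wildtype replicate 1 inside their range. Igf2, a fetal growth factor, read 6.65, 6.69, 6.34, 6.0 and 6.15 in wildtype and 5.63, 4.54, 5.01, 5.96 and 6.12 in heterozygous replicates 1 to 5. It was lower by -0.91 ± 0.29 (SE; limma unadjusted p = 0.00907, adjusted p = 0.9999), and its groups overlapped through heterozygous replicate 5. Hoxa5, a homeobox gene, differed by -0.47 ± 0.21 (SE; -0.27 without heterozygous replicates 2 and 5 and wildtype replicate 5). It read 7.82 and 7.80 in wildtype replicates 1 and 5 but 7.095, 6.828 and 6.817 in wildtype replicates 2 to 4. The Hoxa5 difference was -0.33 without wildtype replicate 1 and -0.34 without wildtype replicate 5. Cdkn1b, the inhibitor KIP1 known as a menin target, differed by 0.04 ± 0.24. Stromal markers were lower on average in heterozygous islets for 16 of 16 genes, with a median of -0.77 and none past the adjusted threshold. These genes were read on the same arrays and are not separate counts. The stromal mean was highest of all mice in heterozygous replicate 4, at 10.14 against at most 10.09 in wildtype. It was lowest in heterozygous replicates 3 and 1, at 8.22 and 8.45. With the stromal mean as a covariate the Igf2 difference was -0.59.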

How the data were processed

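Islet RNA of 10 mice, 5 per genotype by the sample titles, was measured on 1 Affymetrix Mouse Genome array each. The authors deposited log2 values, 1 for each probe set on each array. Per the submitters' processing notes they come from GCRMA, a method that corrects background by probe sequence and normalizes between arrays, which draws dim probe sets towards 1 low value. Amplification over 2 cycles shortens RNA, which lowers probe sets far from the 3′ end. The version of GCRMA and the scanner are not given in the sources used. The number of arrays limits the precision.

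A platform table named the probe sets: 34945 carry 1 symbol, 932 several and 9160 none. After 64 control probe sets were left out, those above 4 on at least 5 arrays were kept. Genotypes were compared in limma 3.58.1 (lmFit, eBayes; R 4.3.3) with Benjamini-Hochberg adjustment over all 18567 probe sets and a two-sided threshold of 0.05. Correlations over mice used 100000 permutations in Python 3.11.15 with scipy 1.17.1; with genotype means removed, all 14400 pairings within genotypes were used, and with fewer mice all orders. The code was tested on simulated data. Lists entered with the brightest probe set per gene.

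Members and lists were chosen with earlier results of these data known. Named were all member probe sets, the 3 genes of each pathway list with the smallest p, and the 5 genes with the highest and 3 with the lowest r with Men1; marker genes and Cdkn1b were added to these with their values known. The replicate numbers were not used to pair the mice in the main fit. Same-numbered mice correlated between -0.28 and 0.11 after group means were removed, which cannot show whether they were paired. Alternatives were filters, normalization, the variance prior, array weights, a replicate block, covariates and left-out mice. Those without heterozygous replicates 2 and 5 and wildtype replicate 5, and all on the islet endocrine mean, were chosen after seeing the data.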

Additional observations from a re-analysis of the deposited data

Results flagged for a closer look

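Of 76 groups of 5 mice examined, 5 held a mouse far from the others by the range of its group, and chance gives that in about 5% of groups. Of these, 3 are readings at background: Men1 1416348_at was 3.34 in heterozygous replicate 1, against 3.06 to 3.13 in the other heterozygous mice. Men1 1443826_x_at was 2.64 in wildtype replicate 3, against 2.52 to 2.54, and 3.29 in heterozygous replicate 3, against 2.46 to 2.53. Hoxa5 1443803_x_at was 6.55 in heterozygous replicate 5, where the other 4 lay between 6.86 and 6.87. Plekha3 1420839_at was 3.99 in wildtype replicate 5, against 4.50 to 4.70 in the other wildtype mice, and Men1 was also lowest in that mouse among the wildtype.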

How the results depend on the processing

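No probe set was called for genotype, and no r with Men1 passed, under any alternative run, so the counts stayed at 0. The Men1 difference kept its direction in all, from -0.63 to -0.28, and was -0.47 with the replicate block, which changed no call. Each of the 17 member differences, none of them called, moved by over 1.5 times under at least 1 alternative, as did 12 of the 17 other named ones. The direction turned for small values. The difference of Kmt2a 1427283_at was 0.12 as the mean of both Kmt2a probe sets, and that of Dpy30 0.049 with the 3′ minus 5′ covariate. That of Psip1 1417166_at was -0.001 with quantile normalization, -0.053 without heterozygous replicates 2 and 5, -0.036 also without wildtype replicate 5, -0.029, -0.018 and -0.045 with the stromal, lymphocyte and acinar covariates, and ran from -0.074 to 0.071 on leaving out 1 mouse.

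With genotype means removed, r with Men1 was -0.0039 for Kmt2a 1427283_at, -0.020 for Ash2l 1420616_at and -0.36 for Ash2l 1420615_at. Without heterozygous replicates 2 and 5, the 2 farthest from the Men1 median, it was 0.033 for Kmt2b, -0.17 for Ash2l 1420615_at and 0.34 for Dpy30. Without these and wildtype replicate 5 it was 0.13 for Kmt2b, 0.34 for Kmt2c 1457193_at, 0.50 for Dpy30 and 0.016 for Psip1 1417166_at. With quantile normalization it was 0.071 for Kmt2b and 0.14 for Kmt2c 1457193_at. On leaving out 1 mouse, r ran from -0.0045 to 0.42 for Kmt2a 1427283_at, -0.16 to 0.27 for Kmt2b, -0.17 to 0.27 for Kmt2c 1457193_at, -0.34 to 0.47 for Ash2l 1420615_at, -0.26 to 0.094 for Dpy30, -0.49 to 0.058 for Psip1 1417166_at and -0.65 to 0.065 for Psip1 1442148_at. The cause was not tested.

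The r of Psip1 1417166_at with the islet endocrine mean stayed between 0.89 and 0.97. Its adjusted p passed with quantile normalization (0.0379) and not with list medians (0.0536) or without heterozygous replicates 2 and 5 (0.162), where fewer mice also limit the p. For Psip1 1442148_at that r was -0.34 without these mice, -0.35 also without wildtype replicate 5, and ran from -0.12 to 0.40 on leaving out 1 mouse. Differences may be understated among readings not far above the level of 4, such as those of Plekha3 and of Ash2l 1420615_at.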
